A study of Mus musculus with 17 samples.

Results

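The 10 genes described here encode the enzymes that write, maintain, oxidise and remove DNA methylation, with 2 metabolic enzymes that supply their cofactor: Tet1, Tet2, Tet3, Dnmt1, Dnmt3a, Dnmt3b, Uhrf1, Idh1, Idh2 and Tdg. They were picked by symbol, through the Ensembl identifier of each row, and are 10 of 47643 gene rows in the table of counts. All 10 passed the filter on low counts, with 80 to 11684 counts per gene and library.

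RNA was sequenced from flow-sorted mouse bone marrow cells that bore cKit, the receptor of haematopoietic progenitors, and lacked lymphoid and erythroid markers. The 17 libraries came from mice carrying a deletion of URE, an upstream enhancer of Spi1 (the gene of the blood transcription factor PU.1), a Tet2 null allele, or both. Libraries are named by group and number. The groups were WT (URE+/+;Tet2+/+, 3 libraries), URE het (UREΔ/+;Tet2+/+, 3), Tet2 het (URE+/+;Tet2+/-, 3), Tet2 KO (URE+/+;Tet2-/-, 3), URE het Tet2 het (UREΔ/+;Tet2+/-, 2, called compound het here) with URE het Tet2 KO (UREΔ/+;Tet2-/-, 3, called compound KO). The first 4 groups were labelled Normal and compound het and compound KO AML (acute myeloid leukaemia), so compound genotype and disease cannot be told apart. Ages were said to be matched and were not given, and no label says that libraries came from separate mice, so p-values measure the spread between libraries, which may be technical. The counts cover whole genes and do not check either mutant allele.

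Methyl groups are placed on cytosines of CpG dinucleotides by the de novo methyltransferases Dnmt3a and Dnmt3b and copied to the new strand at replication by Dnmt1, which Uhrf1 brings to hemimethylated DNA. Tet enzymes oxidise 5-methylcytosine with 2-oxoglutarate as a cosubstrate, Tdg excises the more oxidised bases, and the isocitrate dehydrogenases Idh1 and Idh2 make 2-oxoglutarate. Mutations of TET2, DNMT3A, IDH1 and IDH2 are known from clonal haematopoiesis and myeloid leukaemia.

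Gene counts came to 21.1 to 38.3 M per library (median 32.2 M), and mitochondrial ribosomal RNA took 24.6 to 37.8% of them in Normal and 24.7 to 41.1% in AML libraries. Levels are CPM (each gene's count relative to its library's total, scaled by the trimmed-mean method TMM), as mean ± SD over libraries, and differences are log2 fold changes ± an approximate standard error (SE) from edgeR's quasi-likelihood test, with p-values adjusted by Benjamini-Hochberg over 19951 genes and a threshold of 0.05. The titles number the libraries 1 to 17. They were divided here into 1 to 7 and 8 to 17, a division that no label marks or calls a batch. Numbers 1 to 7 hold 2 WT libraries and 1 of every mutant genotype (number 1 of its group). In 3 AML libraries (compound het 1, compound KO 2 and 3) 373 genes of chromosome 2 between 60 and 160 Mb stood at a median of 49.6 to 50.5% of their Normal mean, and the same 3 libraries were farthest from Normal on the first principal component. By Xist and Y-linked RNA 5 Normal libraries were female and 7 male, while 3 AML libraries were female and 2 showed neither. Spi1, the gene of the deleted enhancer, had 55.8 to 122 CPM in WT, 45.3 to 90.9 in URE het, 54.1 to 124 in Tet2 het and 52.2 to 137 in Tet2 KO. Over these Normal libraries Spi1 split by title number, at 90.9 to 137 CPM in 1 to 7 and 45.3 to 63.1 in 8 to 17. It had 21.6 and 34.9 CPM in compound het and 98.6, 7.83 and 12.2 in compound KO, and it lies in the low stretch of chromosome 2 too. In bulk RNA, fewer cells of a type and less RNA per cell cannot be told apart.

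Of the 10 genes, Tet1 fell and Tet2 rose in AML against Normal. The other 8 did not pass, so 2 of 10 were called, where 11% of all genes tested were called (6.94% higher, 4.02% lower). DESeq2 called the same 2 (16.4% of all genes), while limma voom called Tet1 and Dnmt3b (7.75%). The median log2 difference was -0.31 over the 10 genes and 0.05 over all genes tested, with 8 of the 10 below 0. None of the 10 separated the 5 AML from the 12 Normal libraries without overlap, as 1.52% of all genes did.

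Markers of other cells moved with the comparison. Of 6 late neutrophil genes 5 were lower in AML, where their sum was 10229 to 31946 CPM against 24918 to 89226 in Normal. Of 6 mast, basophil and eosinophil genes 4 were lower (19.6 to 98.4 against 90.3 to 263 CPM), as were 4 of 6 B cell genes (0.143 to 8.004 against 6.56 to 25.5), 2 of 5 megakaryocyte genes (0.746 to 33.7 against 15.1 to 34.6), 1 of 6 T and NK cell genes of which 5 were tested (18.8 to 92.4 against 59.7 to 152) and 1 of 6 monocyte and dendritic genes (96.9 to 224 against 175 to 329). None of 6 erythroid genes passed (0.635 to 7.78 against 1.30 to 32.5 CPM). Nor did any of 5 progenitor genes (Kit, Cd34, Gata2, Mpo and Flt3), of which Kit alone encodes a marker used in the sort. Their sum was 4731 to 7890 CPM in AML against 2480 to 6884 in Normal. Their median log2 difference was -0.43, against 0.05 over all genes, and Gata2 was at 0 counts in compound het 1. Pax5 of B cells was at 0 counts in all AML libraries but compound het 2, and Pf4 of megakaryocytes in compound het 1 and compound KO 2 and 3. The part of these cells in the levels of Tet1, Tet2 and the other 8 genes was not tested.

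**Figure D1:**
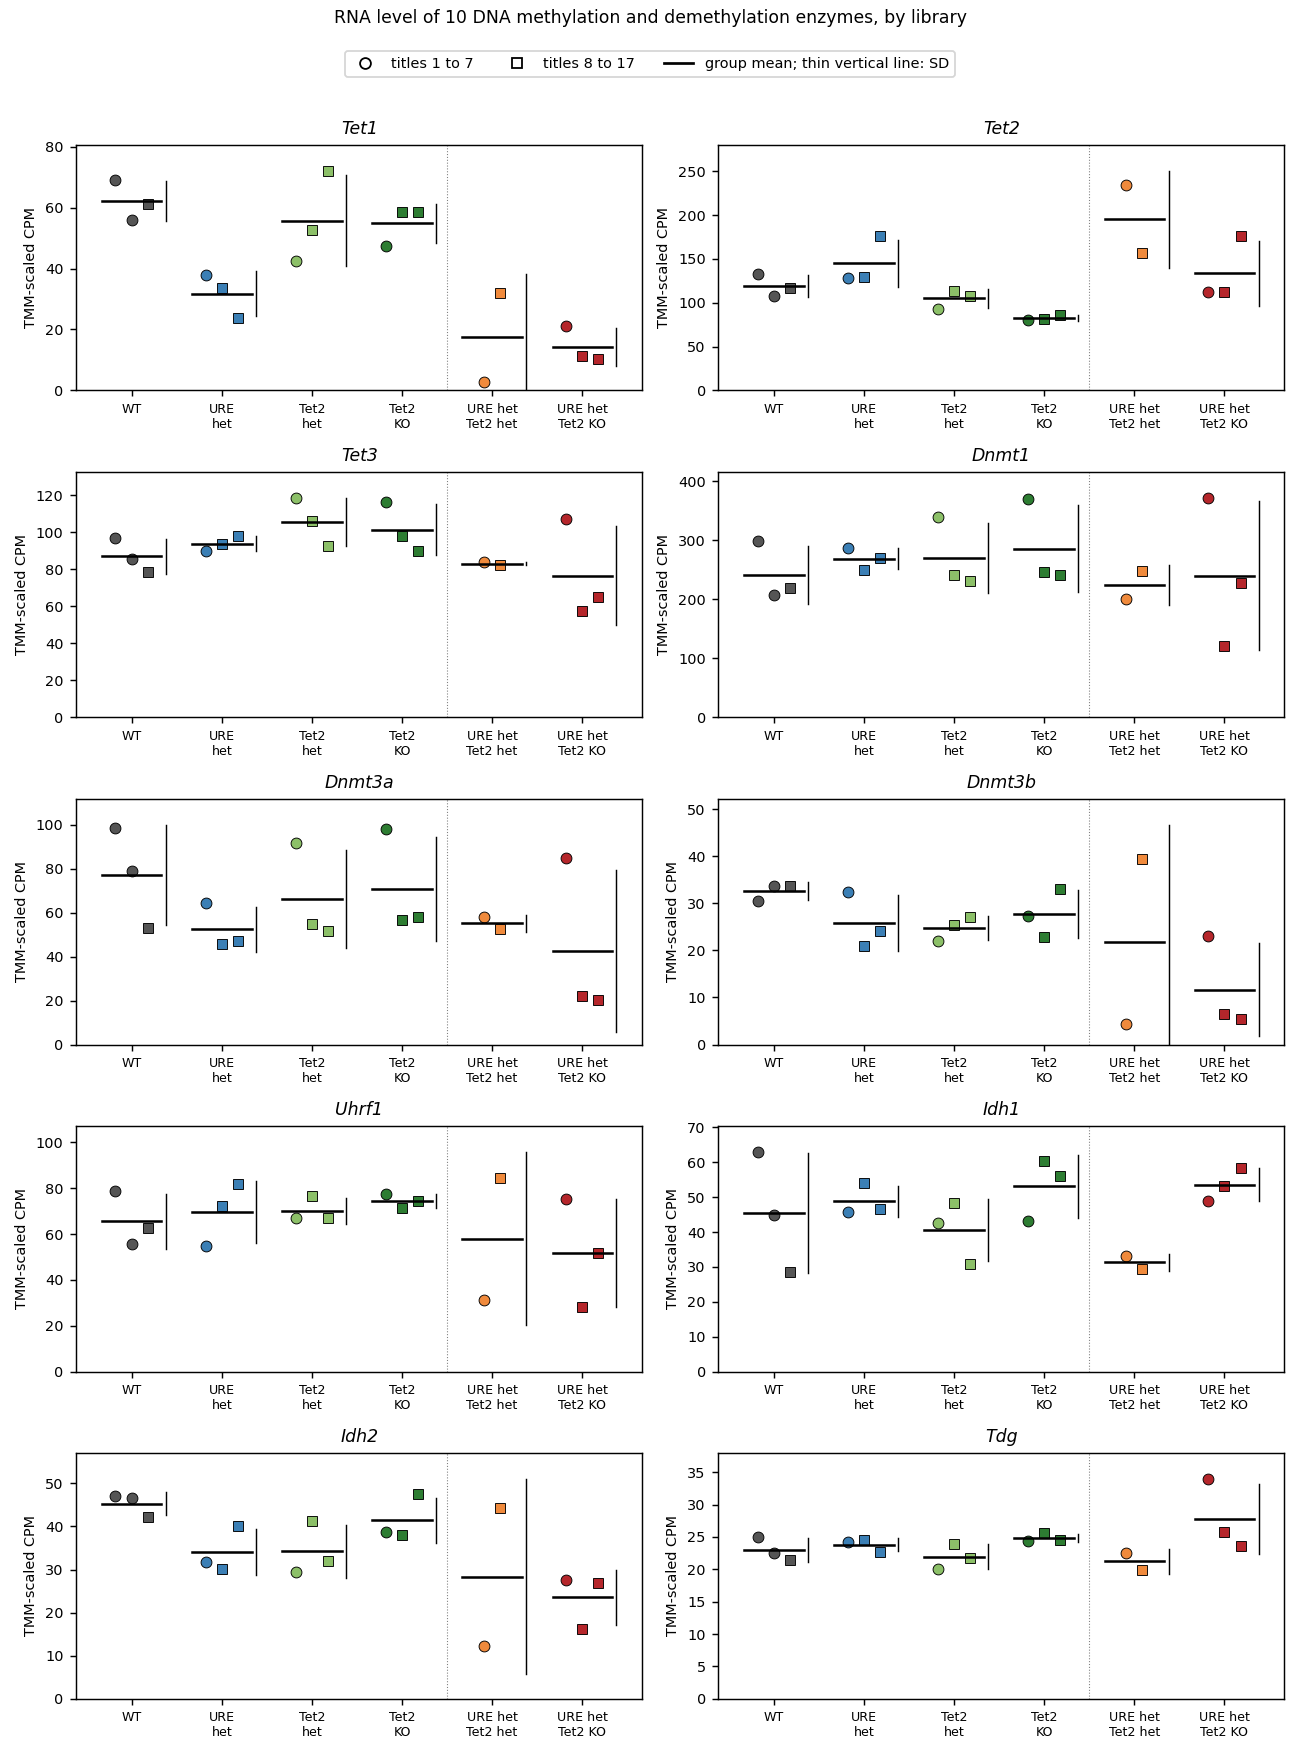
TMM-scaled CPM (vertical axes, from 0) of each gene in each library by genotype (horizontal axis); horizontal lines are group means, thin vertical lines 1 SD cut at 0, circles titles 1 to 7, squares titles 8 to 17, and the dotted line parts Normal (left) from AML. Tet1 lies at 2.60 to 32.1 CPM in the 5 AML libraries and at 23.6 to 72.0 CPM in the 12 Normal ones, while Tdg stays between 19.9 and 33.9 CPM throughout.

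The RefSeq start regions of the 2 genes that passed are shown because CpG dinucleotides, in capitals, are the sites at which DNA is methylated. Each is written 5′ to 3′ on its gene's strand, from 250 bases before to 50 after the start (GRCm38.p6). Tet1 is chr10:62887275-62887574 and Tet2 chr3:133544341-133544640, both on the minus strand. Both windows lie inside the genes as annotated, whose 5′ ends are at 62908996 for Tet1 and 133545139 for Tet2. The sequence at those ends is not shown, so each window describes only the start it covers.
Tet1: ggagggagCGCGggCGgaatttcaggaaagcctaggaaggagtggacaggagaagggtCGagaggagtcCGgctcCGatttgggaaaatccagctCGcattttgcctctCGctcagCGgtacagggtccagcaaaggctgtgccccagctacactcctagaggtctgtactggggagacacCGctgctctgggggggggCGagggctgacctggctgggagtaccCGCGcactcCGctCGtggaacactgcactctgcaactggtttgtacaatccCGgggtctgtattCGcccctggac
Tet2: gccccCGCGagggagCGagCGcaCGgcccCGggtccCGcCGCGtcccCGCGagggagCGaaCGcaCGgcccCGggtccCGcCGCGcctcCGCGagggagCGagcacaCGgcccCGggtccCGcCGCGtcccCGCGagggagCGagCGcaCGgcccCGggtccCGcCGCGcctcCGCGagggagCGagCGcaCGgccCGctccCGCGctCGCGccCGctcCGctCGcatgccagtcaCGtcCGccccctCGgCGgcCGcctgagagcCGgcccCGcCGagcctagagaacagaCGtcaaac
Tet1 has 17 CpG in this window and Tet2 57, where the median of 32851 mouse windows of this length is 7. At least 17 CpG are found in 31.4% of all windows and at least 57 in 0.152%. GAGGAA, read on both strands as letters of the core often bound by PU.1, occurs in neither window. It occurs in 5 of 16 windows of the 10 genes (those of Dnmt1, Dnmt3a, Dnmt3b and Idh1) and in 28.3% of all windows. These are descriptions of sequence, and methylation was not measured here.

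Tet1, the family member best known from embryonic stem cells, showed the largest difference between AML and Normal of the 10 genes. Tet1 (ENSMUSG00000047146.15, chromosome 10, 62804570 to 62908996, minus strand, GRCm38) had 69.0, 55.9 and 61.4 CPM in WT, 37.99, 33.7 and 23.6 in URE het, 42.4, 52.8 and 72.0 in Tet2 het, and 47.4, 58.5 and 58.6 in Tet2 KO. It had 2.60 and 32.1 CPM in compound het and 21.3, 11.2 and 10.2 in compound KO. So 4 of 5 AML libraries lay below every Normal library, and compound het 2 lay among the URE het libraries. The AML mean was 15.5 ± 11.4 CPM (SD, n = 5) and the Normal mean 51.1 ± 14.5 (n = 12), and Tet1 fell by 1.66 ± 0.41 on the log2 scale (3.15-fold, edgeR adjusted p = 0.0189). Titles 8 to 17 alone gave -1.44 (adjusted p = 0.00153) and titles 1 to 7 alone -2.66 (adjusted p = 4.64e-05). In titles 1 to 7 the spread comes from the 2 WT libraries alone, and every other group, a single library, is assumed to vary like them, so calls there are weakly supported for each of the 10 genes. WT and compound het are single libraries in titles 8 to 17, under the same assumption. Tet1 was called in 17 of 17 fits that left out 1 library, at -3.03 without compound het 2 and -1.22 without compound het 1, with adjusted p from 3.43e-05 to 0.0461.

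The call of Tet1 ended in 2 of the other fits run. A term for sex, which leaves out 2 of the 5 AML libraries, gave -1.20 (adjusted p = 0.108). Without the 3 libraries low on chromosome 2, which leaves 1 library in each compound group, it was -0.97 (adjusted p = 0.053). All 3 URE het libraries lay below all 3 WT libraries, at a mean of 31.8 ± 7.37 against 62.1 ± 6.55 CPM. In URE het against WT the difference of -0.97 ± 0.56 did not pass (edgeR adjusted p = 1). Mean levels ran downward in the order WT, Tet2 het, Tet2 KO, URE het, compound het and compound KO, and of these neighbours Tet2 KO and URE het alone had ranges that did not overlap. The share of all genes with such a gap was not counted.

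Tet2, the family member most often mutated in blood cancers and the targeted gene, moved the opposite way. Tet2 (ENSMUSG00000040943.12, chromosome 3, 133463679 to 133545139, minus strand) had 133, 108 and 117 CPM in WT, 129, 129.8 and 176 in URE het, 92.5, 114 and 108 in Tet2 het, and 80.2, 81.0 and 86.3 in Tet2 KO. In the compound mutants it had 234 and 156 CPM with 1 Tet2 allele left and 112, 113 and 176 with none. Compound het 1 lay above every Normal library, and the other 4 AML libraries lay within the Normal range but above all 3 Tet2 KO libraries. Tet2 rose by 0.55 ± 0.14 on the log2 scale in AML (1.46-fold, 158 ± 50.8 CPM, n = 5, against 113 ± 27.3, n = 12, edgeR adjusted p = 0.0261).

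This call of Tet2 was less stable than that of Tet1 over the fits run. It remained in 12 of 17 fits without 1 library and ended without compound het 1 (0.38, adjusted p = 0.18), compound KO 3 (0.104), URE het 2 (0.0577), Tet2 KO 2 (0.0538) and Tet2 het 3 (0.05003). It also ended with no filter on low counts (adjusted p = 0.0535), with limma voom (0.0762), within titles 8 to 17 (0.40, 0.112), with the sex term (0.47, 0.309) and without the 3 libraries low on chromosome 2 (0.21, 0.513). Titles 1 to 7 alone gave 0.63 (adjusted p = 0.018). Tet2 counts remained where Tet2 alone was mutated: Tet2 KO stood at 82.5 ± 3.30 CPM against 119 ± 12.6 in WT, the 3 libraries of each did not overlap, and the difference of -0.53 ± 0.22 did not pass (edgeR adjusted p = 1). An antisense gene, Gm42567, overlaps Tet2, and its reads cannot be parted where strand was not stated to be used.

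Tet3, the third dioxygenase, did not pass over all libraries. Tet3 (ENSMUSG00000034832.15, chromosome 6, 83362373 to 83459084) ran from 78.3 to 118 CPM over 12 Normal libraries (median 95.3). It had 83.6 and 82.3 CPM in compound het and 107, 57.3 and 64.9 in compound KO, where libraries 2 and 3 lay below every Normal library and library 1 inside their range. The AML difference of -0.28 ± 0.15 did not pass (edgeR adjusted p = 0.244). It passed without compound KO 1 (-0.44, adjusted p = 0.0178).

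Per kilobase of exon, which allows genes to be compared, Tet1 was a smaller part and Tet2 a larger part of the Tet family in AML. The 3 genes together came to 14.3 to 18.1 CPM per kb in Normal libraries and 10.8 to 19.1 in AML. Tet1 made up 8.56 to 28.1% of that sum in Normal (median 22.3%) and 0.883 to 12.8% in AML (median 6.70%). Tet2 made up 32.1 to 58.5% in Normal (median 41.6%) and 46.0 to 72.8% in AML (median 61.6%). Both ranges overlap through the URE het libraries, in which Tet1 held 8.56 to 15.9% and Tet2 49.3 to 58.5%. These shares are a description, with no test.

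**Figure D2:**
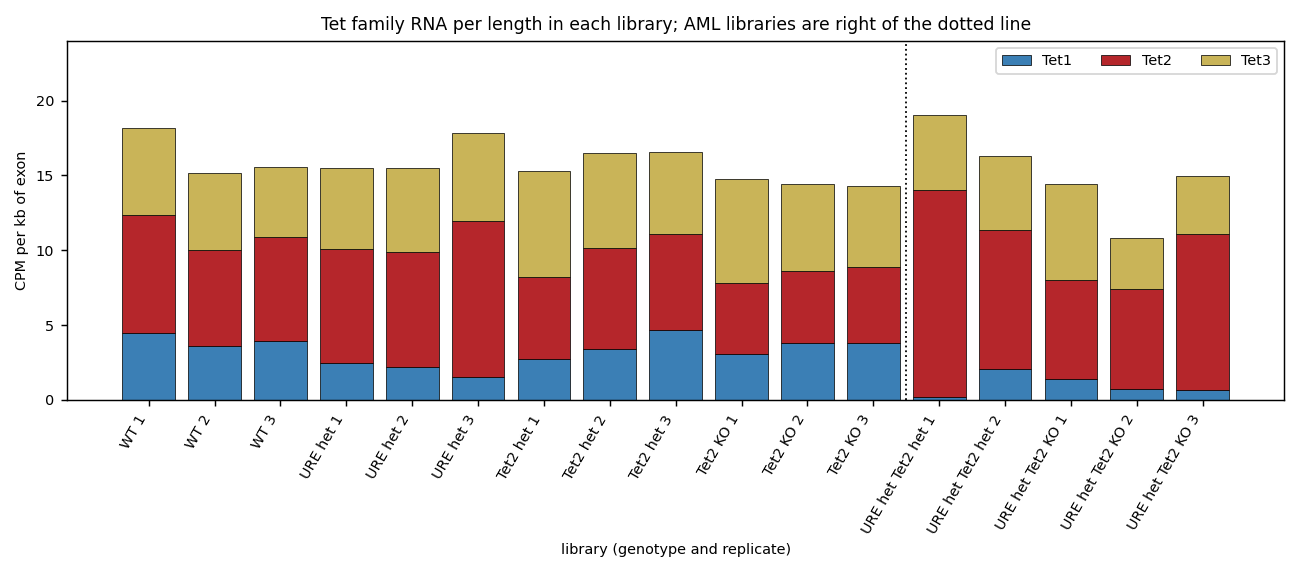
Stacked bars give Tet1 (blue), Tet2 (red) and Tet3 (yellow) in CPM per kb of exon (vertical axis, from 0) for each of the 17 libraries (horizontal axis), AML right of the dotted line. The blue part is smallest in compound het 1, at 0.883% of the bar, and largest in Tet2 het 3, at 28.1%.

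Of the methyltransferases and their partner Uhrf1, none of the 4 passed in AML against Normal over all libraries. Dnmt1, the maintenance methyltransferase (ENSMUSG00000004099.15, chromosome 9, 20907209 to 20959888), ran from 208 to 371 CPM in Normal libraries (median 249). It had 200.3 and 248 CPM in compound het and 372, 121 and 229 in compound KO, so AML held both the highest and the lowest library. The difference of -0.20 ± 0.22 did not pass (adjusted p = 0.619). Per length Dnmt1 stood at 36.2 ± 6.64 CPM per kb in Normal libraries (n = 12), the highest of the 10 genes, and made up 71.3 to 83.2% of the 3 methyltransferases there and 75.6 to 93.2% in AML.

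Uhrf1, the reader that guides Dnmt1 (ENSMUSG00000001228.14, chromosome 17, 56303321 to 56323486), ran from 55.0 to 81.7 CPM in Normal libraries (median 71.8). It had 31.2 and 84.7 CPM in compound het and 75.4, 28.3 and 51.9 in compound KO, with 3 AML libraries below the Normal range and 1 above it. The difference was -0.35 ± 0.23 (adjusted p = 0.367), and it passed at -0.81 (adjusted p = 0.0297) without compound het 2. The summed level of 12 genes of S phase and mitosis was 3618 to 6688 CPM in Normal libraries and, in the same order of AML libraries, 2679, 3259, 5765, 1973 and 2774 CPM. Compound KO 1, the AML library with the most Dnmt1, was highest in that sum too. Its part in the levels of Dnmt1 and Uhrf1 was not tested.

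Dnmt3a, the de novo methyltransferase often mutated in clonal haematopoiesis, split the libraries by title number. Dnmt3a (ENSMUSG00000020661.15, chromosome 12, 3806007 to 3914443) ran from 64.3 to 98.8 CPM in the 5 Normal libraries numbered 1 to 7 and from 45.8 to 58.0 in the 7 numbered 8 to 17, with no overlap. Between these ranges the log2 difference was -0.70 ± 0.09 over the Normal libraries (edgeR adjusted p = 5.38e-05) and -0.87 ± 0.17 over all 17 (adjusted p = 0.00194). Dnmt1 was the only other of the 10 called between the title ranges, over the Normal libraries (-0.37, adjusted p = 0.0163), where 36.4% of all genes were called, and 26.9% over all 17 libraries. In AML, Dnmt3a had 57.9 and 85.2 CPM in the 2 libraries numbered 1 to 7 and 52.5, 22.3 and 20.1 in the 3 numbered 8 to 17.

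For Dnmt3a AML against Normal gave -0.45 ± 0.31 over all libraries (adjusted p = 0.393) and -0.50 with a term for the title range (adjusted p = 0.0751). Within titles 8 to 17 it passed at -0.66 ± 0.11 (adjusted p = 0.00527), in a fit that called 3 of the 10 genes (Tet1, Dnmt3a, Dnmt3b) and 20.9% of all genes. Within titles 1 to 7, where each mutant group is a single library, it was -0.29 (adjusted p = 0.237). Without compound KO 1 it passed at -0.95 (adjusted p = 0.00769). An antisense gene, Dnmt3aos, overlaps it.

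Dnmt3b, the other de novo enzyme, lay on chromosome 2 within the stretch that was low in 3 AML libraries. Dnmt3b (ENSMUSG00000027478.15, chromosome 2, 153649450 to 153687730) ran from 20.9 to 33.8 CPM in Normal libraries (median 27.1). It had 4.36 and 39.3 CPM in compound het and 23.0, 6.48 and 5.41 in compound KO, so that 3 AML libraries lay below every Normal one and 1 above. The difference of -0.79 ± 0.41 did not pass (edgeR adjusted p = 0.237). It passed with limma voom (-1.48, adjusted p = 0.0185), within titles 8 to 17 (-0.84, 0.00818), within titles 1 to 7 (-1.50, 0.000593), and without compound het 2 (-1.96, 0.00394) or compound KO 1 (-1.27, 0.0281).

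In compound het 1 and compound KO 2 and 3, Dnmt3b stood at 15.7, 23.4 and 19.5% of its Normal mean. The median of 100 genes within 10 Mb of it stood at 48.8, 52.2 and 49.1% in these libraries, so Dnmt3b lay below its neighbours in each of the 3. In the other 2 AML libraries the neighbours stood at 89.7 and 104% and Dnmt3b at 142 and 83.1%. Without the 3 libraries its difference was 0.08 (adjusted p = 0.861). Around the other 9 genes the neighbours' median ran from 81.5 to 128% of Normal in the AML libraries, and around Tet1 from 86.0 to 113%. DNA was not measured, and the part of the chromosome 2 stretch in Dnmt3b was not tested.

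**Figure D3:**
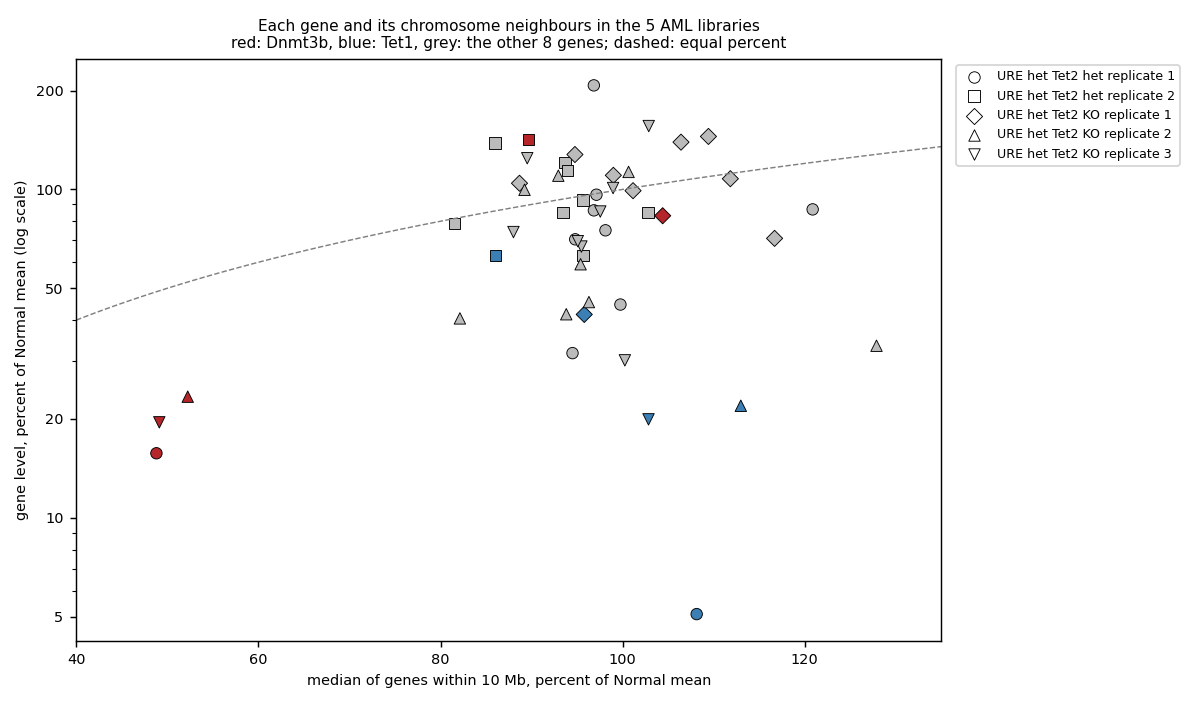
Each point is 1 of the 10 genes in 1 of the 5 AML libraries (marker shape): its level as percent of its Normal mean (vertical axis, log scale) against the median of tested genes within 10 Mb (horizontal axis, percent of Normal mean), with equality dashed. Dnmt3b (red) in 3 libraries is the only gene with neighbours near 50%, while Tet1 (blue) reaches 5.09% with neighbours near their Normal level.

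The 2 isocitrate dehydrogenases did not follow each other. Idh2, the mitochondrial form (ENSMUSG00000030541.16, chromosome 7, 80094846 to 80115392), ran from 29.3 to 47.4 CPM in Normal libraries (median 39.4). It had 12.3 and 44.3 CPM in compound het and 27.5, 16.1 and 26.9 in compound KO, so 4 of 5 AML libraries lay below every Normal one. The difference of -0.57 ± 0.24 did not pass (edgeR adjusted p = 0.134). It passed without compound het 2 (-1.19, 0.000985) and within titles 1 to 7 (-0.99, 0.00279), and was -0.34 within titles 8 to 17 (0.246).

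Idh1, the cytosolic form (ENSMUSG00000025950.16, chromosome 1, 65158616 to 65186500), ran from 28.5 to 62.9 CPM in Normal libraries and had 33.1, 29.5, 49.0, 53.1 and 58.5 in AML. All 5 lay inside the Normal range and the difference was -0.19 ± 0.17 (adjusted p = 0.524). The ratio of Idh1 to Idh2 per length was 0.631 to 1.67 in Normal libraries and 2.52, 0.622, 1.67, 3.07 and 2.03 in AML.

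Tdg, the glycosylase that removes oxidised methylcytosine, had the least spread of the 10 genes among Normal libraries. Tdg (ENSMUSG00000034674.18, chromosome 10, 82629828 to 82650799) stood at 23.4 ± 1.68 CPM in Normal (n = 12) and 25.1 ± 5.34 in AML (n = 5). Compound KO 1, at 33.9 CPM, was the highest library, and compound het 2, at 19.9, the lowest. The difference was 0.05 ± 0.12 (adjusted p = 0.817).

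Per kilobase of exon the 10 genes spanned a wide range of levels. In Normal libraries (SD, n = 12) Dnmt1 was followed by Idh1 at 16.95 ± 3.78 CPM per kb, Uhrf1 at 16.4 ± 2.07 and Idh2 at 14.97 ± 2.56. Tet2 at 6.69 ± 1.62, Tet3 at 5.80 ± 0.705 and Dnmt3b at 5.43 ± 0.936 came next, and Tdg at 4.35 ± 0.313, Dnmt3a at 4.01 ± 1.20 and Tet1 at 3.31 ± 0.940 were lowest, with neighbours in this order after Dnmt1 within 1 SD of each other except Idh2 with Tet2 and Dnmt3b with Tdg. In AML (n = 5) Tet2 reached 9.37 ± 3.01 CPM per kb and Tet1 1.00 ± 0.739. Over the 6 genotypes, neighbours in the order of mean level had ranges that did not overlap for Tet1 (Tet2 KO above URE het) and Tet2 (Tet2 het above Tet2 KO) alone among the 10 genes. How many of all genes have such gaps was not counted. Neither pair of genotypes was among those tested, in which 9.52 to 25.1% of all genes had libraries that did not overlap.

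**Figure D4:**
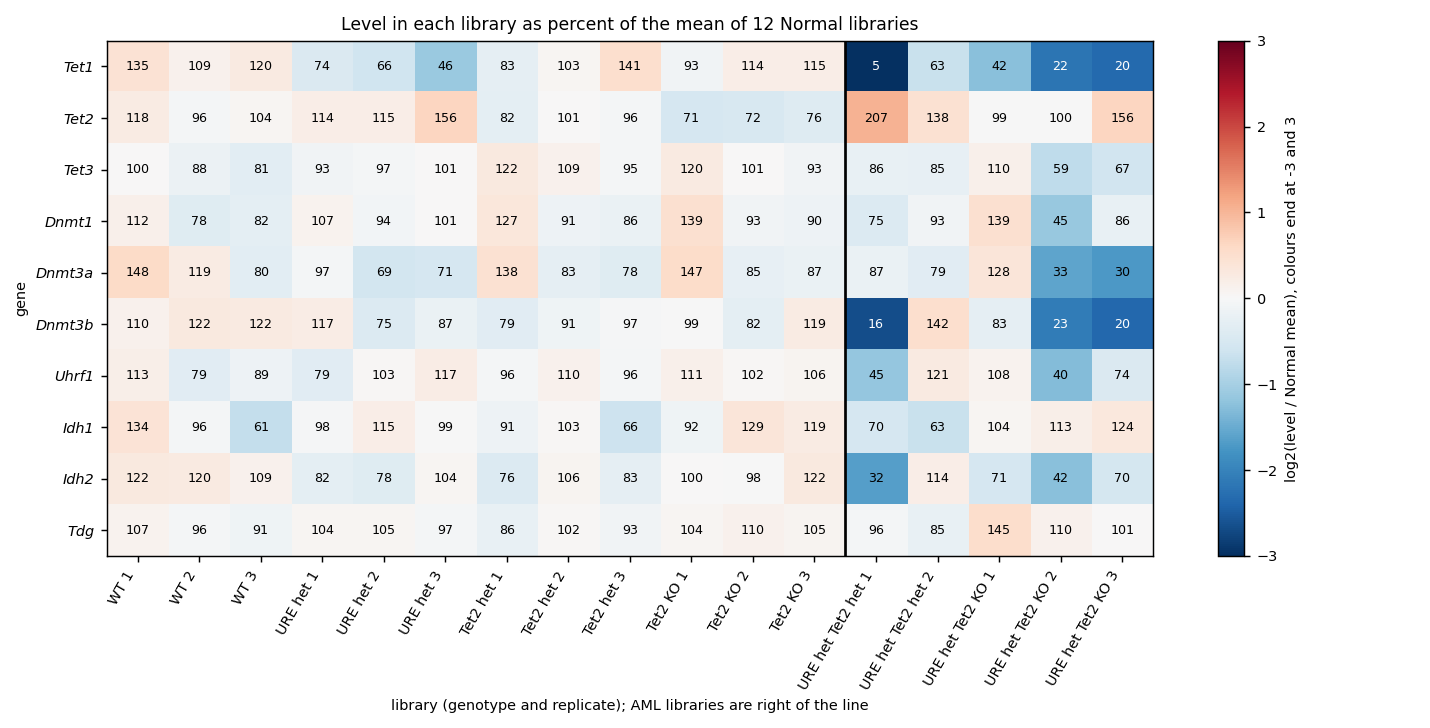
Rows are the 10 genes, columns the 17 libraries by genotype, numbers the level as percent of the mean of the 12 Normal libraries, and colour its log2 (red above, blue below, ending at -3 and 3). Compound het 1 and compound KO 2 and 3 hold the deepest blue, at 5.09, 21.9 and 19.9% for Tet1 and 15.7, 23.4 and 19.5% for Dnmt3b.

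The single mutants were compared with WT to see what each lesion did alone, and no gene of the 10 passed. No gene in the whole table passed in these 3 comparisons by edgeR (0% called), where 753 genes in URE het, 585 in Tet2 het and 512 in Tet2 KO had an unadjusted p under 0.05. DESeq2 called 7 (0.0352%), 1 (0.00503%) and 12 (0.0603%) genes and limma voom 79 (0.396%), 0 and 86 (0.431%), none of them among the 10. In URE het against WT, Tet1 and Idh2 had libraries that did not overlap (12.7% of all genes), with Idh2 at -0.41 ± 0.35 and Dnmt3a, which overlapped, at -0.56 ± 0.46. In Tet2 het against WT it was Dnmt3b and Idh2 (10.5% of all genes), at -0.40 ± 0.59 and -0.41 ± 0.35, with Tet2 at -0.19 ± 0.22. In Tet2 KO against WT it was Tet2 alone (9.52% of all genes). The counts of 2, 2 and 1 of 10 are near these shares of all genes, and the 3 comparisons share the WT libraries.

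Adding the URE deletion to a Tet2 lesion was tested in 2 comparisons. In compound KO against Tet2 KO none of the 10 genes passed, where 0.977% of all genes did, although 3 of 10 had libraries that did not overlap (17.9% of all genes): Tet1 (-1.95 ± 0.58, adjusted p = 0.109), Tet2 (0.69 ± 0.23, 0.139) and Idh2 (-0.82 ± 0.35, 0.273). Dnmt3b was at -1.25 ± 0.60 (0.345). Within titles 8 to 17, 2 libraries against 2, 7 of the 10 passed, where 17.1% of all genes did: Tet1 at -2.45, Dnmt3b at -2.23, Dnmt3a at -1.44, Idh2 at -0.99, Uhrf1 at -0.87 and Tet3 at -0.62 were lower and Tet2 at 0.78 was higher. Both compound KO libraries of that range, 2 and 3, are low on chromosome 2. Compound KO 1, at 104% of Normal there, is left out. The URE deletion and the low stretch cannot be told apart in that fit. The same 7 passed with limma voom (18.3% of all genes), which gives libraries far from their group less weight, while DESeq2 called Tet1 alone (6.09% of all genes). With a term for the title range none of the 10 passed (2.08% of all genes).

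Without compound KO 1, which is numbered below 8, 5 of the 10 passed over the other libraries (Tet1, Tet2, Tet3, Dnmt3a and Dnmt3b). Of all genes 1799 of 19868 were called in that fit. The compound KO libraries left, 2 and 3, are those low on chromosome 2. Compound KO 1 lay inside or above the Normal range for 8 of the 10 genes, Tet1 and Idh2 being the exceptions.

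In compound het against Tet2 het none of the 10 passed, nor did any gene of the table by edgeR (0% called, 2652 genes with an unadjusted p under 0.05, and 599 called by DESeq2). Tet1 (-1.68 ± 0.66), Tet2 (0.90 ± 0.25) and Tet3 (-0.35 ± 0.25) had libraries that did not overlap, as did 25.1% of all genes. With DESeq2 Tet2 passed (adjusted p = 0.0486, 3.20% of all genes called). Without compound het 2, the lone compound het library left is assumed to vary like the other groups. In that fit Tet1 was at -4.44, Tet2 at 1.14, Dnmt3b at -2.52 and Idh2 at -1.49. Within titles 8 to 17, where compound het 2 is the lone compound library, none of the 10 passed (4.07% of all genes), and Dnmt3b was at 0.58 and Idh2 at 0.27.

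**Figure D5:**
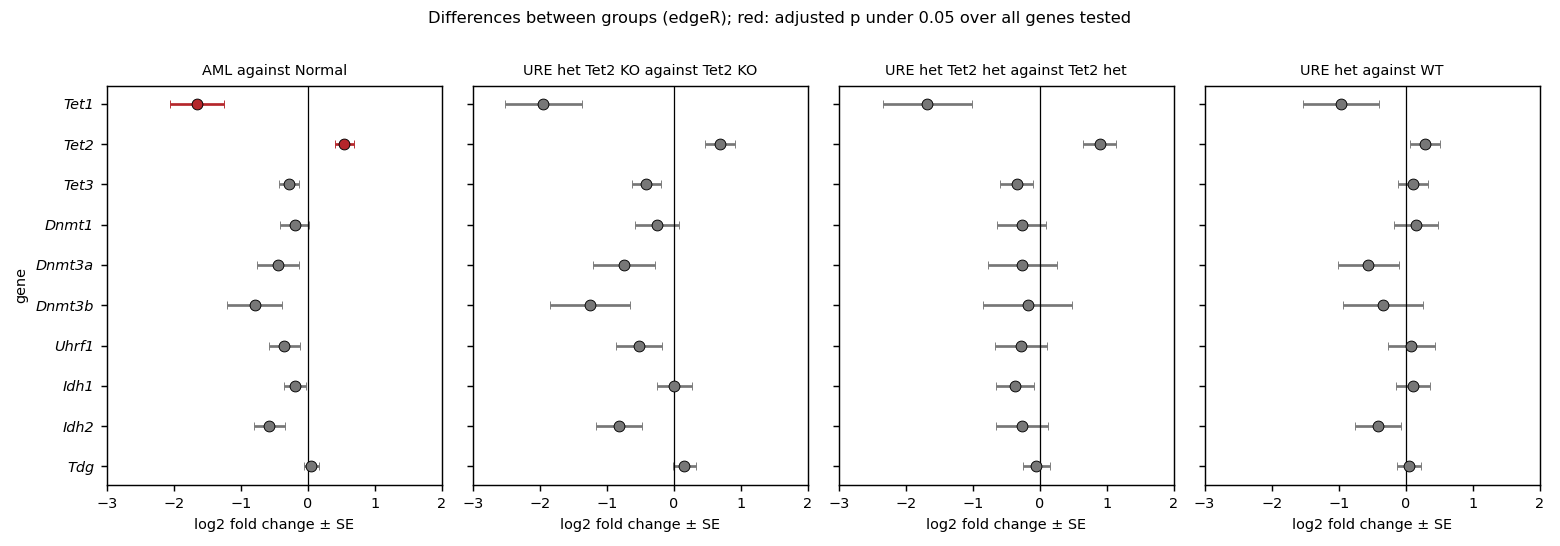
Log2 fold changes (horizontal axes) with SE bars for the 10 genes (vertical axis) in 4 comparisons; red points passed an adjusted p of 0.05 over all genes. Tet1 at -1.66 and Tet2 at 0.55 in AML against Normal are the 2 red points, and URE het alone lies at -0.97 for Tet1.

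The 2 compound genotypes were set against each other to read the dose of Tet2 within AML. None of the 10 passed (0.01% of all genes called). Idh1 (0.77 ± 0.29, adjusted p = 0.335) and Tdg (0.39 ± 0.20, 0.46) had libraries that did not overlap, higher with no Tet2 allele left (17% of all genes), and Tet2 was at -0.55 ± 0.25 (0.41). Within titles 8 to 17 compound het is a single library, assumed to vary like the other groups, and in that fit 6 of 10 passed where 23.6% of all genes did (Tet1, Dnmt3a, Dnmt3b, Uhrf1 and Idh2 lower, Idh1 higher). Within titles 8 to 17 both compound KO libraries were low on chromosome 2 (50.5 and 49.6% of Normal), and compound het 2 was not (89.9%). The dose of Tet2 and this low stretch cannot be told apart there. With a term for the title range none passed (0.0702% of all genes). For the test of whether the URE effect differed with and without Tet2, none of the 10 passed (0% of all genes, 1618 with an unadjusted p under 0.05). Tet1 was at -0.98 ± 0.79, Tet2 at 0.41 ± 0.32, Dnmt3a at -0.18 ± 0.65 and Dnmt3b at -0.92 ± 0.84. With limma voom Dnmt3b passed (-1.57, adjusted p = 0.0405, 8.93% of all genes). Within titles 8 to 17, where WT is a single library and its spread is taken from the other groups, Dnmt3a (-1.23, adjusted p = 0.0268) and Dnmt3b (-1.64, 0.0335) passed, as did 3.51% of all genes.

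Other genes of the methylation cycle were read from 8 lists, with 125 genes of which 105 were tested, and 13 passed in AML against Normal, 8 higher and 5 lower (12.4%, against 11% of all genes). Among 13 tested partners of maintenance and de novo methylation, Pcna, the replication clamp to which Dnmt1 binds, was lower (log2 -0.96 ± 0.26, adjusted p = 0.0285), as was Suv39h2, a histone H3 lysine methyltransferase (-0.68 ± 0.16, 0.0165). Pcna lies in the low stretch of chromosome 2 and stood at 26.8, 25.7 and 43.9% of its Normal mean in the 3 libraries. Its call ended without compound het 1 (0.139) or compound KO 3, and that of Suv39h2 without compound het 1 or with limma voom (0.0661). Dnmt3l, the catalytically inactive partner of Dnmt3a and Dnmt3b, was higher (1.11 ± 0.34, 0.048) at under 1.70 CPM in every library, and kept its call in 4 of 17 omissions (URE het 1, compound het 2, compound KO 1 and 2).

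Among 18 tested genes of base excision and deamination, Apobec1, a cytidine deaminase, alone passed. It was higher (1.08 ± 0.28, adjusted p = 0.0252), at 49.5 ± 23.0 CPM in AML (n = 5) and 23.9 ± 8.23 in Normal (n = 12), in 12 of 17 omissions, ending without Tet2 het 3, Tet2 KO 2, compound het 1 or compound KO 2 or 3. Of 11 tested Tet partners and CXXC proteins, Cebpa, a myeloid transcription factor, was higher (1.70 ± 0.37, 0.0101), with 110.2, 13.4, 29.2, 102.5 and 70.5 CPM in the 5 AML libraries, and its call ended without compound het 1 (0.306). Ebf1, a B cell factor, was lower (0.00252), with 0 counts in 3 of 5 AML libraries and 1.14 ± 0.907 CPM in Normal. The 6 genes of B cells, Ebf1 among them, summed to 6.56 to 25.5 CPM in Normal libraries and 0.143 to 8.004 in AML, and the part of these cells in Ebf1 was not tested.

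None of 7 methyl-CpG readers passed. Of 20 tested genes of 2-oxoglutarate and succinate metabolism Got1, the cytosolic aspartate aminotransferase, alone passed (higher, 0.93 ± 0.26, adjusted p = 0.0349). It had 34.9 to 40.6 CPM in 4 AML libraries, 8.41 in compound het 2, and 9.01 to 26.0 in Normal, and kept its call in 6 of 17 omissions. The call ended without WT 1 or 3, URE het 2 or 3, Tet2 het 2 or 3, Tet2 KO 1 or 2, compound het 1, or compound KO 2 or 3. Of 15 tested genes of the S-adenosylmethionine and folate cycle, Mthfd2, the mitochondrial folate enzyme, alone passed. It was lower at 7.89 ± 2.59 CPM in AML and 14.7 ± 3.77 in Normal (-0.94 ± 0.22, adjusted p = 0.0151), and its call ended without compound het 1 (0.0884).

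Of 18 germline genes that DNA methylation usually keeps silent, 6 passed the filter on low counts and none was called. Of 15 tested imprinted genes 4 were called higher (Cdkn1c, Peg3, Igf2 and Plagl1) and 1 lower (Ndn), all at low levels. Cdkn1c, a cyclin-dependent kinase inhibitor, had 0.522 ± 0.287 CPM in Normal and 2.72 ± 1.74 in AML (2.12 ± 0.35, adjusted p = 0.00235) and was called in 17 of 17 omissions. Peg3 had 1.79, 2.61 and 4.32 CPM in the 3 AML libraries low on chromosome 2 and 0 in the other 2. Omissions kept the call of Peg3 in 8 of 17 (compound het 2, compound KO 1, WT 3, Tet2 KO 1 and 3, Tet2 het 1, URE het 1 and 3) and that of Igf2 in 6 (Tet2 het 1, Tet2 KO 1 and 3, compound het 2, compound KO 1 and 3). They kept Plagl1 in 5 (Tet2 KO 1 and 2, compound het 2, compound KO 1 and 2) and Ndn in 8 (compound het 2, compound KO 1, WT 1, Tet2 KO 1 and 2, Tet2 het 1 and 2, URE het 3). With limma voom the calls of Suv39h2, Got1, Dnmt3l, Peg3, Ndn, Igf2 and Plagl1 ended (adjusted p from 0.0661 to 0.286) and those of the other 6 of the 13 list genes remained. DESeq2 ended the call of Peg3 (adjusted p = 0.12), and its size factors in edgeR that of Dnmt3l (0.052). With no filter on low counts in edgeR the calls of Peg3 (0.0748), Plagl1 (0.0845) and Dnmt3l (0.108) ended.

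The calls of all 13 genes of the 8 lists ended with the sex term and without the 3 libraries low on chromosome 2, fits that leave 3 and 2 AML libraries, but their differences did not all shrink alike. Suv39h2 was at -0.64 without the 3 libraries and -0.45 with the sex term, Mthfd2 at -0.63 and -0.83, and Cdkn1c at 1.34 and 1.92. Ebf1 had an adjusted p of 0.0502 without the 3 libraries, and the 2 AML libraries then left had 0.340 and 0 CPM. Got1 (0.08 and 0.003), Cebpa (-0.05 and 0.28) and Apobec1 (0.22 and 0.35) were much nearer to 0 in these fits, in the same order.

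Genes most like the enzymes were sought by Pearson correlation of log2 CPM over the 17 libraries among 7718 genes, given as a description, since the libraries share the AML difference and their title ranges. Tet1 was most like Gng2 (r = 0.98 over 17 libraries and 0.87 over the 12 Normal ones), Adgrl4 (0.97, 0.82) and Arhgap32 (0.96, 0.73). Dnmt3b was most like Galnt6 (0.98, 0.81), Dnmt3a like Treml2 (0.96, 0.94) and Dnmt1 like Cdk5rap2 (0.95, 0.90). Tet2 had weaker neighbours, led by Stag3 (0.81, 0.53). Tet3 was led by Med13l (0.91, 0.74), Idh1 by Ptgr1 (0.82, 0.87), Idh2 by Xrcc6 (0.94, 0.83) and Tdg by Rbm3 (0.89, 0.56).

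Among the 10 genes themselves, Tet1 and Dnmt3b (r = 0.88), Dnmt3b and Idh2 (0.87) and Tet1 and Idh2 (0.86) were closest over 17 libraries. Over the 12 Normal libraries these pairs were at 0.45, 0.61 and 0.38. Tet3 and Dnmt1 were at 0.84 and 0.80. Tet1 and Tet2 ran opposite, at -0.71 over 17 libraries and -0.52 over the Normal ones.

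The table also counts rows named by a gene identifier and enh, with no coordinates or definition, and 44 of 42055 such rows carry the identifiers of 9 of the 10 genes (none for Tdg). Of these 24 passed the filter and 1 was called in AML against Normal, where 4.04% of all tested enh rows were. It was the Tet2 row numbered 2, at 0.573 to 1.26 CPM in Normal libraries and 1.38 to 2.44 in all 5 AML libraries, with no overlap (log2 1.20 ± 0.31, edgeR adjusted p = 0.0289). All 7 tested Tet2 rows had positive differences and all 10 tested Dnmt3a rows negative ones. The call of row 2 ended without URE het 2, Tet2 het 3, compound het 1 or compound KO 2 or 3. Whether these rows share reads with the gene rows was not given, so they cannot be taken as independent of the gene's own level.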

How the data were processed

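RNA of 17 libraries was analysed from the table of raw counts deposited by the authors, which were not normalised; alignment with STAR to GRCm38 is named per the submitters' processing notes, and for the versions, annotation, counting tool and use of strand the sources used here give nothing. In all the table holds 96004 rows, of which 47643 are genes, 42055 are enh rows with a gene identifier and 6306 enh rows without one. Symbols and exon lengths came from GENCODE vM21 by identifier (47224 genes matched, 39106 with the same version). The 10 genes, the lists and the rules were chosen with earlier results of these data known.

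Genes with enough counts (filterByExpr, minimum count 10 and minimum total 15) were fitted in edgeR 4.0.16 (R 4.3.3) with TMM scaling, 6 genotype means over all 17 libraries and a robust quasi-likelihood test. AML against Normal set the mean of the 2 compound genotypes against the mean of the 4 others. P-values were adjusted by Benjamini-Hochberg over 19951 genes in each of 8 comparisons, and the SE was taken as the log2 difference over the root of the F statistic. Enh rows were fitted separately with the scaling of the genes. The fit was tested on simulated data.

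Alternatives were DESeq2 1.42.0, its size factors in edgeR, limma 3.58.1 voom with quality weights, no filter, the compared groups only, a term for the title range or for sex, titles 8 to 17 only and leaving out each library. Named were the 10 genes, Spi1, up to 6 genes of each list past 0.05 by smallest p, and up to 3 genes most like each of the 10 among genes with a mean log2 CPM of at least 3; the genes most like Uhrf1 are not reported here. The depth was 21.1 to 38.3 M counts, and the tests of the 10 genes rest on the spread between libraries. The most similar pair of libraries differed in the counts of 25266 genes, so none was counted as a duplicate.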

Additional observations from a re-analysis of the deposited data

How the results depend on the processing

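Over 1220 values of the 10 genes under the alternatives run, 1088 kept their direction and side of the threshold, 50 passed where the reported one did not, 12 no longer passed, and 70 changed sign, 0 of these past the threshold. In AML against Normal, where 2 of the 10 were called, 1 was called with no filter (1816 of 31557 genes). None was called with the sex term or without the 3 libraries low on chromosome 2. Within titles 1 to 7 the spread comes from 2 WT libraries only. Without the 2 AML libraries nearest to Normal on the first principal component, 1 compound het library is left. Counts of the 10 called in these last 2 fits are not given. When single libraries were left out 1 to 5 were called, with 5 without compound KO 1 (3998 of 19868 genes). The fits within titles 1 to 7, without the 3 libraries and without the 2 libraries were chosen after seeing the data. All genes called came to 2188 in the reported analysis, 3255 with DESeq2, 1547 with voom, 3664 with the title range term, 4307 within titles 8 to 17, 45 with the sex term, 383 and 5552 without those 3 or 2 libraries, and 845 to 3998 without single libraries.

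Compound KO against Tet2 KO (0 called) gave 1 with DESeq2, 7 with voom, 7 within titles 8 to 17 and 0 to 5 without single libraries. All genes called came to 3 to 1799 without single libraries. Compound het against Tet2 het (0) gave 1 with DESeq2 and 0 to 4 without single libraries. The 4 comes only from the fit without compound het 2. That fit leaves 1 compound het library, assumed to vary like the other groups, so it is weakly supported. Compound KO against compound het (0) gave 6 within titles 8 to 17, and the interaction (0) gave 1 with voom and 2 within titles 8 to 17, where compound het and WT respectively are single libraries assumed to vary like the other groups. The enh rows (1 called) gave 3 with scaling on the enh rows and 0 to 3 without single libraries; with no filter 1 was called, an Idh1 row rather than the Tet2 row.

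Sign changes in AML against Normal were Dnmt1 (0.00032 with the sex term, 0.15 without the 3 libraries), Dnmt3b (0.085 without the 3), Uhrf1 (0.10 and 0.15), Tdg (-0.044 with voom, -0.069 within titles 8 to 17, -0.030 to 0.088 without single libraries), Cebpa (-0.049 without the 3), Plagl1 (-0.47) and Peg3 (-4.70, and -0.11 to 5.003 without single libraries). In compound het against Tet2 het, Dnmt3b (-0.18 in all libraries) was 0.58 and Idh2 (-0.27) 0.27 within titles 8 to 17, and they ran from -2.52 to 0.66 and from -1.49 to 0.37 without single libraries. The interaction for Dnmt3a (-0.18) ran from -1.19 to 0.13 without single libraries. The cause was not tested for any of these. All 13 list genes lost their call with the sex term and without the 3 libraries, which leave fewer AML libraries, though Suv39h2 (-0.64 without the 3, -0.68 in all libraries) and Mthfd2 (-0.83 with the sex term, -0.94 in all) kept most of their difference. No paired analysis was possible because the labels give no replicate numbers shared between groups. In the lists of low genes, 6 of 18 germline and 15 of 18 imprinted genes had enough counts to be tested. The part of depth in this was not tested.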
